A study of Homo sapiens with 4 samples.

Results

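Results of RT-qPCR are read against a reference gene that is taken to be stable, and the study read its own RT-qPCR against β-actin. The levels of 10 common reference genes (ACTB, ACTG1, HPRT1, TBP, GUSB, PPIA, YWHAZ, SDHA, TFRC and IPO8) were therefore followed in its RNA-seq counts, to see how far each moved with treatment and how much that depended on the scaling. The genes were found by symbol among the 23228 genes of the count tables, and all 10 were present and passed the filter on low counts, as did 13546 genes in all.

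The cells were ES2, a widely used line of human ovarian cancer that the study calls cisplatin resistant, and liquiritigenin (Liq) is a plant flavanone that acts as an agonist of estrogen receptor β. All cells were kept in medium free of phenol red with charcoal-treated serum, and a pair of samples was given vehicle and another pair Liq at 100 μM, all for 24 h. The dose is from the study's methods. The labels speak of duplicates and do not say whether these were separate cultures, so p-values measure the spread between these samples, which may be technical. Reads counted on genes numbered 34573053 to 48933893 per sample, and replicates differed by more than sampling noise. Of the markers listed for ES2 cells and reported here, VIM and KRT18 were abundant and KRT8 moderate. WT1 (98 to 181 counts) and PAX8 (12 to 49 counts) were low, and KRT19, EPCAM and MUC16 had 0 to 3 counts per sample. PAX8 and WT1 were lower with Liq past 1.5-fold (log2 fold changes -1.34 and -0.68, adjusted p = 0.00214 and 0.00285 from edgeR), and the part of cell composition in the results was not tested. Of 8 markers of other cells, PTPRC, CD3E, HBB, ALB and PECAM1 had 0 to 10 counts, while CD68 had 2538 to 3331, CDH5 1712 to 2239 and COL1A1 43536 to 64426 over the 4 samples.

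A reference gene serves RT-qPCR by standing for the amount of RNA in a reaction, since an error in its level passes unchanged into every gene divided by it. The genes in common use come from unrelated pathways, so that one stimulus is unlikely to move them all. ACTB and ACTG1 encode the cytoplasmic β- and γ-actins, which build the filaments of the cytoskeleton. HPRT1 salvages purine bases, TBP binds the TATA box in general transcription, PPIA (cyclophilin A) helps proteins to fold, and YWHAZ is a 14-3-3 adaptor that binds phosphorylated proteins. GUSB is a lysosomal glycosidase, SDHA is the catalytic flavoprotein of respiratory complex II, TFRC imports transferrin-bound iron, and IPO8 carries proteins into the nucleus.

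Counting depends on sequence for some of these genes, because reads with more than 1 best alignment were left out. The coding sequences of ACTB and ACTG1 are both 1125 bases long, were identical at 91.3% of positions, and encode proteins of 375 residues that differ at 4. The first 120 coding bases, which lie in a single exon of each gene, are shown to let the pair be compared (GENCODE transcripts, GRCh37). ACTB is read from the minus strand at chr7:5569169-5569288 and ACTG1 from the minus strand at chr17:79479261-79479380, and capitals mark the 21 positions at which they differ.
ACTB: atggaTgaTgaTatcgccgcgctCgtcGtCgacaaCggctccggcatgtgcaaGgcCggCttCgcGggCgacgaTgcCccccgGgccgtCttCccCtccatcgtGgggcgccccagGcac
ACTG1: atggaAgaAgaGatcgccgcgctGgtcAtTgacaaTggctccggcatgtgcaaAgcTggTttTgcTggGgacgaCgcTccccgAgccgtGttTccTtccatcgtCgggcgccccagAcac
Their longest identical coding run was 59 bases, and 0 of the 1026 coding windows as long as a read (100 bases) were shared. A read of that length could thus be told apart in every one of these windows when it had no sequencing error.

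Each reference transcript was also searched against the whole genome for 100-base windows that occur unchanged outside the gene. There were none for ACTG1, HPRT1, TBP, GUSB, TFRC and IPO8, and 3 of 1713 for ACTB. PPIA had 438 of 2138 windows elsewhere (20.5%, on 6 chromosomes), YWHAZ 478 of 4912 (9.73%) and SDHA 61 of 2594 (2.35%). The counts of these 3 genes leave out such reads in every sample, which lowers their levels. Windows that differ elsewhere by a few bases were not searched for, so these shares do not give the share of reads lost. The listed pseudogenes and copies were at 0 to 8 counts for PPIAL4A to PPIAL4G, at 279 to 404 for GUSBP11, the highest of the GUSB copies, and at 177, 179, 209 and 254 counts for SDHAP1 in vehicle 1, vehicle 2, Liq 1 and Liq 2.

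Levels are given as CPM, counts scaled to a common library size after TMM normalization, which sets library scales so that most genes do not differ. The reference genes are ranked by level only as CPM per kilobase of the main transcript. The background of genes at or above the level of TBP, used further on, was set by CPM without regard to length. In vehicle ACTG1 was at 1909 ± 144 and ACTB at 1535 ± 76 CPM per kb (SD, n = 2), far above the rest. TFRC followed at 96.4 ± 2.9, YWHAZ at 83.6 ± 1.1, PPIA at 71.2 ± 4.6, HPRT1 at 50.1 ± 0.2, SDHA at 48.7 ± 2.1, GUSB at 34.2 ± 1.6, IPO8 at 21.5 ± 0.4 and TBP at 13.8 ± 0.8 CPM per kb. HPRT1 and SDHA did not differ beyond their spread. The levels of PPIA, YWHAZ and SDHA leave out reads that also match elsewhere, so their places by level are uncertain in either group. With Liq the order was the same by group means, but YWHAZ (65.8 ± 7.1) and PPIA (64.5 ± 2.7) no longer differed beyond their spread, nor did SDHA (40.1 ± 3.0) and GUSB (37.8 ± 3.0).

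Liq was compared with vehicle by edgeR's quasi-likelihood test over all tested genes, with Benjamini-Hochberg adjustment. A gene was called at a fold change of at least 1.5, the fold the study used, with an adjusted p-value under 0.05. The study itself used DESeq with p under 0.05 and states no adjustment, so the 2 rules differ. Of the 10 reference genes, 0 were called, while 6.45% of all tested genes were. Without the adjustment none reached 1.5-fold either, 5 had p under 0.05 at a smaller fold, and DESeq2 also called 0. At any fold, 5 of 10 had an adjusted p-value under 0.05, against a background of 24% of all tested genes and 24.6% of the genes at or above the level of TBP. A fit that leaves out a sample has a single sample in that group and takes its spread from the other group. Its p-values and intervals are thus not comparable with these. ACTB, ACTG1, YWHAZ and SDHA fell, where 11.3% of all tested genes did, and TFRC rose, where 12.6% did. The median log2 fold change of the 10 was -0.12, and that of all tested genes was 0.01. The Liq samples lay wholly below vehicle for 6 genes and wholly above for 2, and groups did not overlap for 61.7% of all tested genes. These are shares of the counted RNA, so less transcript per cell cannot be told apart from more RNA of other genes, and RNA per cell was not measured.

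**Figure D1:**
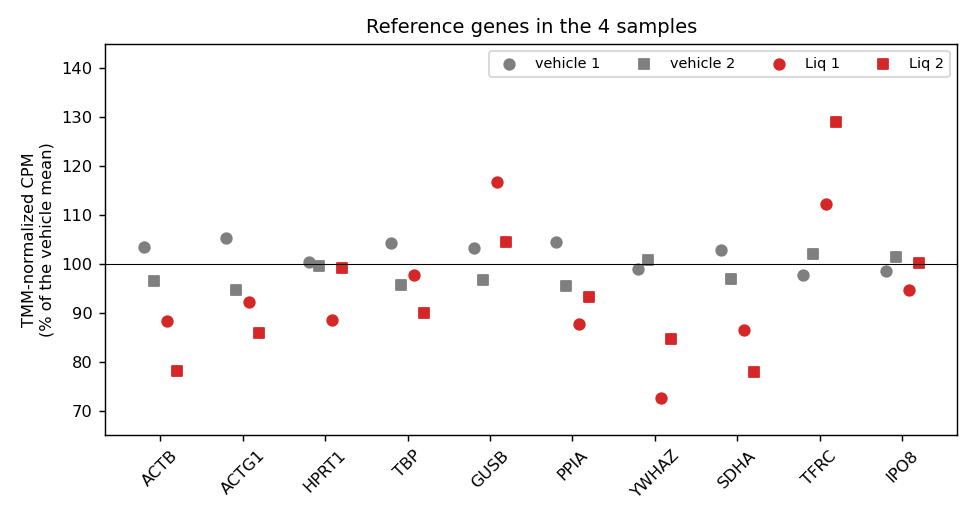
TMM-normalized CPM of each reference gene (vertical axis, percent of its vehicle mean) in vehicle 1 and 2 (grey) and Liq 1 and 2 (red). Both Liq points lie below both vehicle points for ACTB, ACTG1, HPRT1, PPIA, YWHAZ and SDHA, and above them for GUSB and TFRC.

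Of the actins, ACTB (chromosome 7 from 5566040 to 5603533, minus strand, GRCh37) had 118324 and 100492 counts in vehicle and 87357 and 109171 in Liq. This was 2877 and 2684 CPM in vehicle 1 and 2, and 2456 and 2175 CPM in Liq 1 and 2. Both Liq samples were thus lower, and the lowest level was in Liq 2. The log2 fold change was -0.26 (SE 0.06, 95% interval -0.39 to -0.14, adjusted p = 0.00208 from edgeR), a level 0.83 times that of vehicle. Because ACTB is the gene the study divided by in RT-qPCR, its change enters each ratio made with it, as followed further on.

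ACTG1 (chromosome 17 from 79476439 to 79490873, minus strand) was at 3858 and 3468 CPM in vehicle and 3378 and 3148 CPM in Liq. The groups did not overlap, but the gap between vehicle 2 and Liq 1 was smaller than that within vehicle. Its log2 fold change was -0.17 (SE 0.06, 95% interval -0.28 to -0.05, adjusted p = 0.0357 from edgeR). It was -0.09 without vehicle 1 and -0.12 without Liq 2. The adjusted p rose past 0.05 with DESeq2 (-0.17, adjusted p = 0.104). Of 9 tested relatives in the actin machinery, 4 fell and 1 rose. For this and the later counts of relatives by TMM, the background is 11.3% of all tested genes lower and 12.6% higher. The Arp2/3 subunits ACTR2 and ACTR3, which seed branched filaments, changed by -0.23 and -0.34 on the log2 scale, monomer-binding PFN1 by -0.26 and filament-severing CFL1 by -0.18. With total counts as the scale 1 of the 9 fell, and with DESeq2 it was 2. The smooth muscle actin gene ACTA2 rose by 0.85 (SE 0.15, adjusted p = 0.000111 from edgeR) from a low level, with 154 and 116 counts in vehicle and 215 and 317 in Liq.

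YWHAZ (chromosome 8 from 101928751 to 101965616, minus strand) fell most by fold. It was at 415 and 423 CPM in vehicle and 304 and 355 CPM in Liq. The vehicle samples were close together, and the Liq samples were apart from each other and both lower. The log2 fold change was -0.35 (SE 0.07, 95% interval -0.49 to -0.20, adjusted p = 0.000807 from edgeR), a level 0.79 times that of vehicle. Of 5 tested 14-3-3 relatives, 3 fell and the other two had values on the same side of 0. The log2 fold change of YWHAB was -0.43 (SE 0.06, adjusted p = 1.69e-05 from edgeR), that of YWHAH -0.30 and that of YWHAE -0.26. Over the other scalings and DESeq2 1 to 3 of the 5 fell. It was 3 with total counts and with DESeq2, and 1 with the geometric mean of the 10 reference genes as the scale.

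SDHA (chromosome 5 from 218418 to 257197, plus strand) was at 135 and 127 CPM in vehicle and 114 and 102 CPM in Liq, with Liq 2 lowest. Its log2 fold change was -0.28 (SE 0.08, 95% interval -0.44 to -0.13, adjusted p = 0.00785 from edgeR). It was -0.24 without vehicle 1 and -0.33 without vehicle 2. Among 9 genes of complex II, its assembly and the neighbouring citric acid cycle steps, 0 had an adjusted p-value under 0.05 by edgeR or by DESeq2, 2 had an unadjusted p under 0.05 by either tool, and their log2 fold changes ranged from -0.18 to -0.10.

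TFRC (chromosome 3 from 195739382 to 195809024, minus strand) was the reference gene that rose. It was at 473 and 494 CPM in vehicle and 543 and 624 CPM in Liq, with Liq 2 highest. The log2 fold change was 0.27 (SE 0.07, 95% interval 0.13 to 0.41, adjusted p = 0.00479 from edgeR), a level 1.21 times that of vehicle. Without Liq 2 the log2 fold change was 0.17, and without vehicle 1 it was 0.24. Of 9 other tested genes of iron handling 4 rose, with 3 to 5 over the other scalings and DESeq2. The ferritin heavy chain gene FTH1, which serves iron storage, rose to 2.29 times its vehicle level (adjusted p = 2.71e-11 from edgeR), although its many processed copies make its count uncertain. Heme-degrading HMOX1 rose by 1.11 on the log2 scale, the iron transporter SLC11A2 by 0.32 and the hemochromatosis gene HFE, whose product binds the transferrin receptor, by 0.32.

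GUSB (chromosome 7 from 65425671 to 65447202, minus strand) was at 77.6 and 72.8 CPM in vehicle and 87.8 and 78.5 CPM in Liq. Both Liq samples were higher, with little room between vehicle 1 and Liq 2, and the log2 fold change of 0.14 did not pass (SE 0.08, 95% interval -0.02 to 0.31, adjusted p = 0.199 from edgeR). Its log2 fold change was 0.22 without Liq 2, 0.06 without Liq 1 and 0.10 without vehicle 2. Of 12 other lysosomal glycosidases 6 rose, with 5 to 8 over the other scalings and DESeq2, and the median log2 fold change was 0.26. The acid α-glucosidase GAA rose by 0.76 (SE 0.08, adjusted p = 6.96e-08 from edgeR) and the iduronidase IDUA by 0.97 (SE 0.16, adjusted p = 8.00e-05 from edgeR), both past 1.5-fold.

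The other 4 reference genes did not pass the test. PPIA (chromosome 7 from 44836279 to 44864163, plus strand) was at 167 and 152 CPM in vehicle and 140 and 149 CPM in Liq, so the groups touched closely without overlapping. Its log2 fold change was -0.14 (95% interval -0.29 to 0.01, adjusted p = 0.163 from edgeR), and -0.08 without vehicle 1. TBP (chromosome 6 from 170863390 to 170881958, plus strand) was at 26.7 and 24.5 CPM in vehicle and 25.0 and 23.0 CPM in Liq, and the groups overlapped. Its log2 fold change was -0.09 (95% interval -0.29 to 0.10, adjusted p = 0.512 from edgeR), with the widest interval of the 10 at the lowest count, 890 to 1155 reads. Leaving out vehicle 1 or Liq 2 took TBP to -0.03, and leaving out vehicle 2 or Liq 1 took it to -0.15.

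HPRT1 (chromosome X from 133594195 to 133654543, plus strand) was at 70.1 and 69.7 CPM in vehicle and 61.8 and 69.3 CPM in Liq. Liq 2 sat beside the vehicle samples and Liq 1 lay below them. The log2 fold change was -0.09 (95% interval -0.26 to 0.08, adjusted p = 0.447 from edgeR). It was -0.01 without Liq 1 and -0.18 without Liq 2, so its size rested on which Liq sample was kept. IPO8 (chromosome 12 from 30781922 to 30848803, minus strand) was at 110 and 113 CPM in vehicle and 106 and 112 CPM in Liq, and the groups overlapped. Its log2 fold change of -0.04 was the smallest in size of the 10 (95% interval -0.19 to 0.12, adjusted p = 0.76 from edgeR), and it ranged from -0.08 without Liq 2 to 0.00 without Liq 1.

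The relatives of these 4 genes moved to different degrees. Of 8 purine salvage and guanine nucleotide genes, 3 fell, namely PNP by 0.46, ADK by 0.37 and APRT by 0.24 on the log2 scale, and with total counts as the scale 2 fell. Of 12 other importins and their partners, 5 fell, with IPO4 at -0.43, while KPNB1, the main import receptor, was at -0.17, but with total counts as the scale 1 fell and 1 rose. Of 14 TFIID subunits and TBP-like genes, TBPL1 alone fell (-0.28), and of 15 cyclophilin genes and partners PPIL4 alone fell (-0.23). The medians of both lists turned sign with total counts as the scale, from -0.06 to 0.02 for TFIID and from -0.01 to 0.07 for the cyclophilins, of which 3 then rose and 0 fell.

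A p-value that misses the threshold does not show stability, so each interval was set against a margin. The 95% intervals of IPO8 and HPRT1, 2 of 10 genes, lay within 1.2-fold of no change, as did those of 25.3% of all tested genes and 40.8% of the genes at or above the level of TBP. All 10 lay within 1.5-fold. The count within 1.2-fold was 1 with DESeq2 and 5 with total counts. Among all tested genes 3422 lay within 1.2-fold. Without Liq 2 the log2 fold change of YWHAZ was -0.46.

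**Figure D2:**
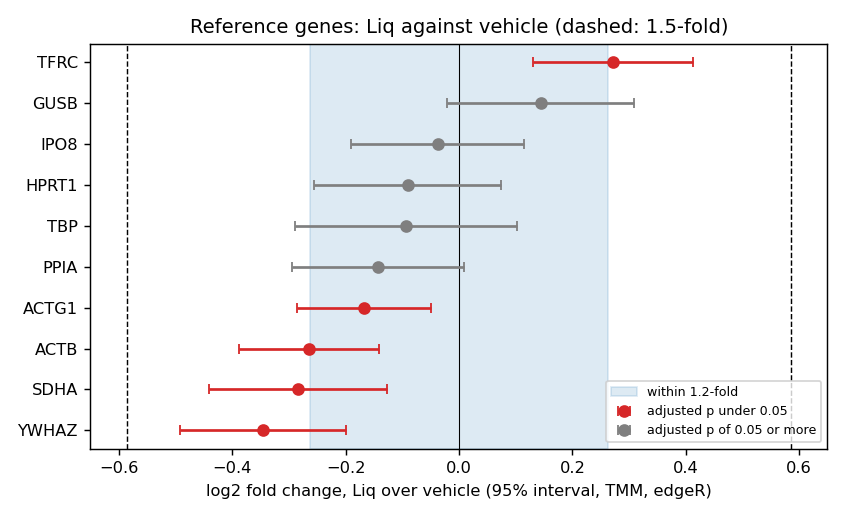
Log2 fold change of each reference gene, Liq over vehicle (horizontal axis), with its 95% interval from edgeR after TMM normalization. Red marks an adjusted p-value under 0.05, the band is 1.2-fold and the dashed lines are 1.5-fold, and only the intervals of IPO8 and HPRT1 lie inside the band.

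These values depended on how libraries were scaled. TMM factors were 0.97 and 0.98 in vehicle and 1.03 in both Liq samples, so a share of total counts gives every gene a higher fold change than TMM does. With total counts the median log2 fold change of all tested genes was 0.08, and with the geometric mean of the 10 reference genes, which sets their own average change near 0 by construction, it was 0.11. On the total count scale ACTB was at -0.19 (adjusted p = 0.0293), YWHAZ at -0.27 (0.0104) and TFRC at 0.35 (0.00117), while ACTG1 at -0.09 (0.263) and SDHA at -0.21 (0.0536) did not pass and GUSB at 0.22 (0.0483) did. Across TMM, RLE, upper quartile, total counts, loess offsets and the geometric mean of the 10, ACTB stayed between -0.27 and -0.16, YWHAZ between -0.35 and -0.24 and TFRC between 0.27 and 0.37, and all 3 passed in each of the 6. ACTB passed narrowly with loess offsets (adjusted p = 0.0484 from edgeR) and with the geometric mean (0.0428), where YWHAZ had 0.00802 and 0.0153. SDHA passed in 4 of the 6 and ACTG1 in 2. HPRT1, TBP and IPO8 crossed 0 and passed in none, with extremes of -0.09 and 0.01 for HPRT1, -0.11 and 0.01 for TBP, and -0.04 and 0.06 for IPO8.

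**Figure D3:**
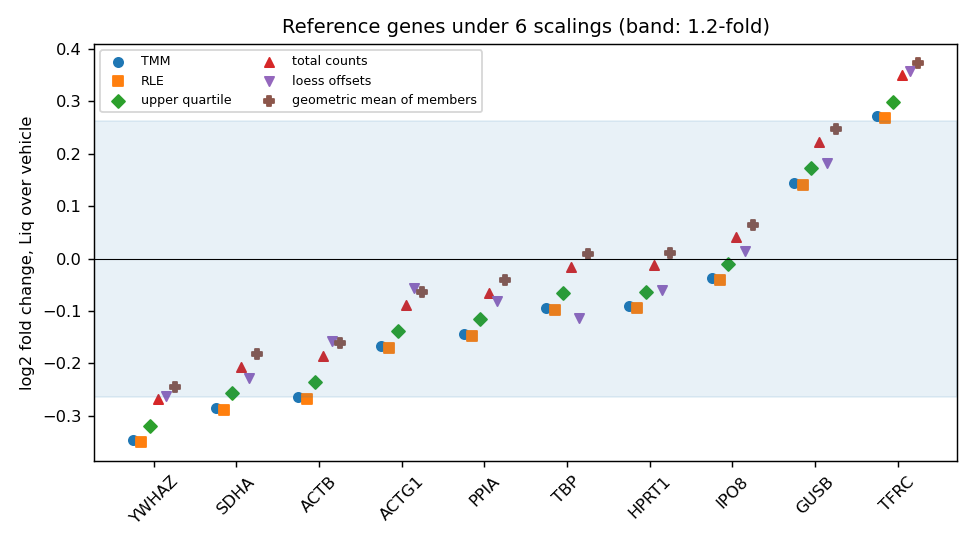
Log2 fold change of each reference gene, Liq over vehicle (vertical axis), under 6 library scalings (symbols), with a band at 1.2-fold. YWHAZ, SDHA and ACTB stay below 0 and GUSB and TFRC above it under all 6, while HPRT1, TBP and IPO8 cross it.

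The ratio of 2 genes in one library needs no scaling, so the 45 pairs were compared too, as a description. The ratio of YWHAZ to TFRC changed most, by -0.62 on the log2 scale between groups, and was the only 1 of 45 to move by 1.5-fold. Its log2 values were -0.19 and -0.22 in vehicle and -0.83 and -0.82 in Liq. SDHA to TFRC changed by -0.55 and ACTB to TFRC by -0.53. In all, 14 pairs changed by 1.2-fold or more and 17 by less than 1.1-fold. The groups did not overlap for 28 of the 45 pairs, which share genes and are not independent. For single genes by TMM the groups did not overlap for 61.7% of all tested genes, and pairs of other genes were not counted.

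ACTB and SDHA kept the steadiest ratio over the 4 samples, with an SD of 0.015 on the log2 scale and a change of 0.02 between groups, although both fell by TMM. This SD was picked as the smallest of 45, and it was not set against counting noise, so it does not show a steady ratio. HPRT1 to TBP changed by less than 0.01, but that ratio differed by 0.11 between the vehicle samples and by 0.29 between the Liq samples. The geNorm measure M, the mean SD of a gene's log2 ratio to the other 9, was lowest for PPIA (0.13), ACTG1 (0.13) and TBP (0.13) and highest for TFRC (0.27), YWHAZ (0.21) and GUSB (0.21). Without Liq 2 the M of ACTB went from 0.16 to 0.10. When the gene with the highest M was removed in turn, TFRC, GUSB, YWHAZ and IPO8 left first. ACTB and SDHA were the last pair, and their M is the same picked SD. The 2 genes ranked best by stepwise M were thus among those that fell against TMM, and IPO8, with the smallest change against TMM, was removed just after YWHAZ.

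**Figure D4:**
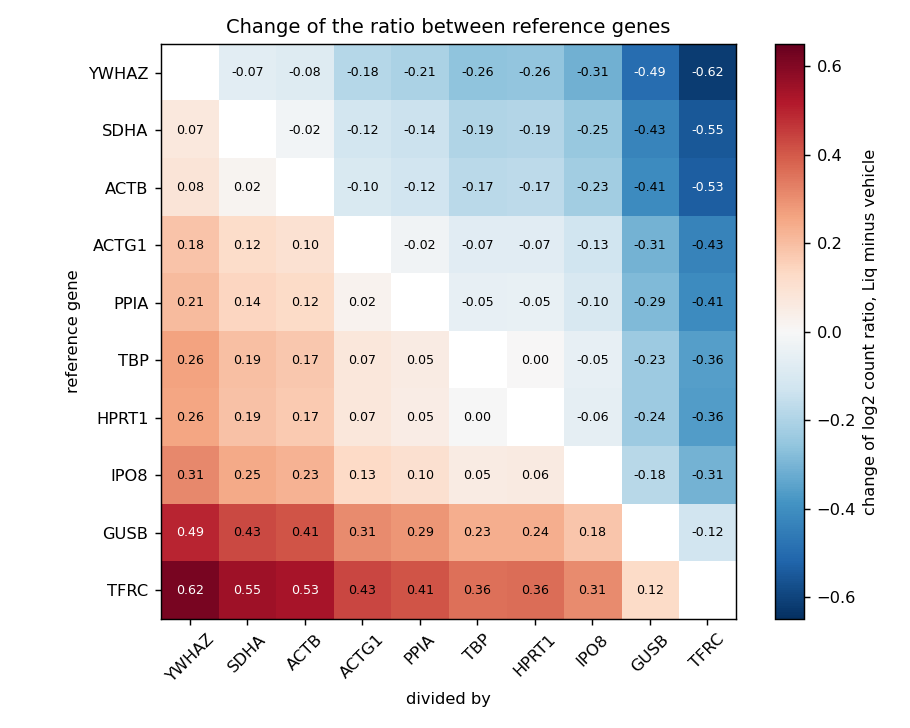
Change of the log2 count ratio of each pair of reference genes, Liq minus vehicle (colour and printed values), with the gene named on the left divided by the gene named below. The corner pairs of TFRC with YWHAZ, SDHA and ACTB have the largest sizes, from 0.53 to 0.62, and ACTB with SDHA is at 0.02.

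Each reference gene was then used alone as the library scale for all 13546 genes, so that its own replicate spread entered every value. This shifts every log2 fold change by about the gene's own TMM value with its sign turned. The direction of each split below thus follows from the values given above and is not a separate result. With TMM 874 genes were called, 581 higher and 293 lower in Liq, and 66.5% of the calls were thus upward. With ACTB as the scale 1888 were called, 1752 higher and 136 lower (92.8% upward), and 717 of the 874 were among them. YWHAZ gave 2472 higher and 110 lower (95.7% upward), and SDHA 1919 and 132. With TFRC the split turned round, to 166 higher and 894 lower (15.7% upward). GUSB gave 272 higher and 428 lower, and IPO8 gave 492 and 226 (68.5% upward), nearest to TMM.

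**Figure D5:**
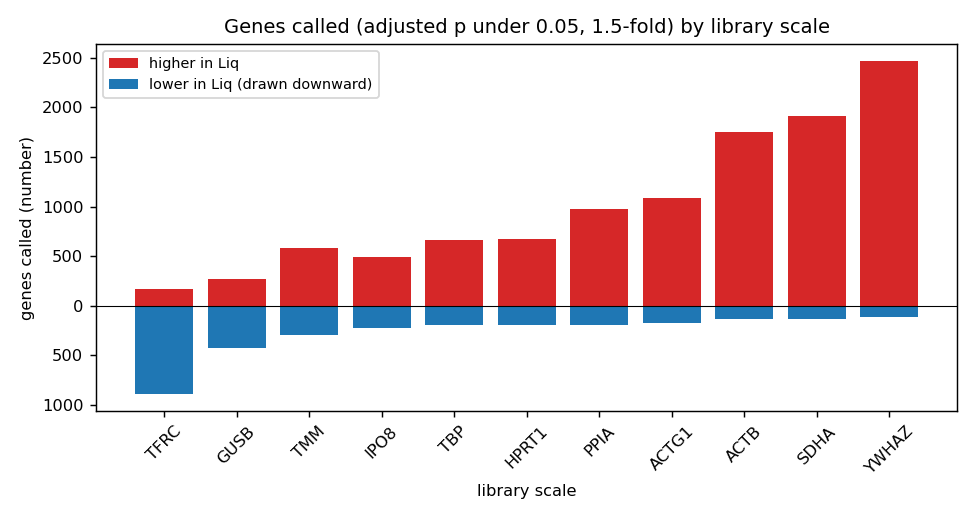
Genes called at 1.5-fold with an adjusted p-value under 0.05 (vertical axis, number), higher in Liq drawn upward and lower drawn downward, when the library scale is TMM or a single reference gene (horizontal axis, ordered by the median log2 fold change of all genes). Upward calls range from 166 with TFRC to 2472 with YWHAZ.

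The study followed 11 genes by RT-qPCR against β-actin, and their RNA-seq counts were read on the same scale. RT-qPCR values were not analysed here. TNF had 0, 0, 2 and 0 counts and was not tested, and the other 10 kept their direction on every scale tried. By TMM 8 were called lower (IL1B, MMP1, MMP3, PTGS2, VCAM1, PIK3CG, ICAM1 and CXCL8, listed as IL8) and MMP11 higher, and MMP14 missed 1.5-fold at -0.58. MMP11, with 79 to 183 counts, did not pass with loess offsets or DESeq2. Dividing by ACTB moved IL1B, which encodes interleukin 1β, from -2.38 (SE 0.07) to -2.11 (SE 0.12) on the log2 scale, and the chemokine gene IL8 from -0.91 (SE 0.07) to -0.64 (SE 0.14). The adhesion molecule gene ICAM1 moved from -0.82 to -0.55, short of 1.5-fold, and MMP14, a membrane-bound matrix protease, from -0.58 to -0.31 (adjusted p = 0.0458 from edgeR). MMP11 moved up as well, from 0.61 to 0.89, which is farther from 0 for a gene that was higher with Liq. With YWHAZ as the scale MMP14 was at -0.22 and did not pass (adjusted p = 0.152), and with TFRC MMP11 was at 0.33 and did not pass (adjusted p = 0.21). With ACTG1, HPRT1, TBP, PPIA or IPO8 alone as the scale the same numbers were called as with TMM, 8 lower and 1 higher. The geometric mean of the 10 reference genes also gave 8 and 1, and with IPO8 as the scale IL8 was at -0.87.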

How the data were processed

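Total RNA from 4 ES2 samples, 2 per group, was sequenced by the authors as single-end 100-base TruSeq reads, aligned to hg19 with TopHat2 2.0.8b and counted per gene with HTSeq (version, counting mode, strand setting and annotation release are not given in the sources used here). The deposited values are raw counts, neither normalized nor pooled. The 5 closing tallies of each table were left out of library sizes and tests. The tally for alignments that were not unique made up 35.63% to 36.23% of gene counts and tallies together. A read with several alignments may enter that tally more than once, so this is not a share of reads. A floor of 3 counts was worth 0.061 to 0.087 CPM, depending on the sample.

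Counts were fitted in R 4.3.3 with edgeR 4.0.16 (filterByExpr with a minimum count of 10, TMM, glmQLFit and glmQLFTest, no replicate block). The SE was the log2 fold change divided by the root of F, and 95% intervals used the t distribution of the fit. With 2 against 2 an exact permutation test cannot go below 0.3333. Alternatives were RLE, upper quartile, total counts, loess offsets (span 0.3), single genes or the geometric mean of the 10 as the scale, other filters, DESeq2 1.42.0, a replicate block and leaving out each sample. The fits were tested on simulated counts. Coordinates and lengths are from GENCODE release 44 lifted to GRCh37, with the MANE transcript of each gene. The members and all gene lists were chosen with earlier results of these data known, and the comparison with genes at or above the level of TBP and the counts of relatives under other scalings were added after the values were seen. Outside the 10, genes are named where they passed 1.5-fold and an adjusted p-value of 0.05, where their intervals were among the 5 narrowest about 0 of the reference lists, or as RT-qPCR targets of the study; the remaining relatives and reference genes were named after their values were seen. Some genes that this rule or the lists would name are not reported here.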

Additional observations from a re-analysis of the deposited data

How the results depend on the processing

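Over 13 alternatives for each of the 10 genes, 106 of 130 log2 fold changes kept their direction and their side of the adjusted p threshold, 13 lost it, 5 gained it and 6 turned sign. YWHAZ and ACTB passed in all 13, TFRC in 11, SDHA in 9 and ACTG1 in 6. The values that turned sign were small, at 0.0113 for HPRT1 and 0.00933 for TBP with the geometric mean of the 10 as the scale, and for IPO8 at 0.0402 with total counts, 0.0640 with the geometric mean and 0.0148 with loess offsets. When each sample was left out in turn, IPO8 ranged from -0.0805 to 0.00211. These fits are among the 13 and keep a single sample in a group, so their passes and misses are not comparable with the rest. The number of reference genes within 1.2-fold was 5 with total counts and with the geometric mean, 4 with loess offsets and 1 with DESeq2. It was 6 with the replicate block and 10 with a margin of 1.5-fold. At any fold, 5 of the 10 and 3245 of all genes passed, and 7 and 4795 did with the replicate block. DESeq2 called 566 of all genes and scaling to ACTB 1888, and loess offsets took the share of upward calls from 66.5% to 47.3%. The replicate number as a block gave 898 calls, and the 2 deviations of same-numbered samples correlated at 0.18 across genes. The block added GUSB (adjusted p = 0.0382) and PPIA (0.0496) to the reference genes that passed, and 4 of the 9 relatives of SDHA fell with it. The cause of these shifts was not tested. With 2 samples per group each SD rests on a single gap, and differences under about 1.2-fold were at the limit of what these intervals resolve.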

Other observations

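Other reference genes in use were read from the same fit. Of 37 tested from a list of further RT-qPCR reference genes, 11 fell and 2 rose at an adjusted p-value under 0.05. Of all tested genes 11.3% fell and 12.6% rose. The median log2 fold change of the 37 was -0.12. With total counts as the scale 7 of the 37 fell and 5 rose, where 3356 of all 13546 genes passed in either direction, and the median of the 37 was -0.04. GAPDH, a glycolytic enzyme gene in wide use, fell from 4347 to 3639 CPM, or -0.26 ± 0.06 (SE) on a log2 scale, which edgeR gave an adjusted p of 0.0015. The ATP synthase subunit gene ATP5B fell by 0.28, the chaperone gene HSP90AB1 by 0.23, PGK1 by 0.18 and ALAS1, which starts heme synthesis, by 0.35. CDKN1A, a cell cycle inhibitor, fell past 1.5-fold, by 1.08 (SE 0.11, adjusted p = 2.00e-08 from edgeR), with 786 and 668 counts in vehicle and 307 and 445 in Liq.

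Among the intervals nearest to no change in the further lists were those of VCP, TUBB, POLR2A and B2M. VCP, an ATPase that extracts proteins for degradation, had a log2 fold change of 0.00 (95% interval -0.13 to 0.12), TUBB one of -0.02 (-0.14 to 0.10), POLR2A one of 0.01 (-0.13 to 0.15) and B2M one of 0.02 (-0.11 to 0.15). They were picked by these intervals, which therefore do not test their stability. VCP comes from a list of 11 genes proposed as constitutive from RNA-seq, of which 10 were tested. In that list RAB7A, a late endosome GTPase, fell by 0.33 (SE 0.06, adjusted p = 0.000384 from edgeR). Of the 10 intervals 5 lay within 1.2-fold, as did those of 25.3% of all tested genes. All 10 genes were above the level of TBP, and of the genes at or above that level 40.8% lay within 1.2-fold.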
